A study of Mus musculus with 36 samples.

Results

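Imprinted genes are transcribed mainly from the copy inherited from one parent. The set described here holds 51 of them in 21 chromosomal clusters, found by symbol among the 54842 gene rows of a count table of mouse embryonic stem cells. In many clusters, though not in all, a mark of DNA methylation laid down in egg or sperm, the imprint, sits at a control region. It keeps one parental copy silent. Many imprinted genes act on growth of the fetus and placenta, and several clusters carry a long noncoding RNA that silences its neighbours on one copy. In naive embryonic stem cells DNA methylation is low, and imprints are known to be less stable there than in tissues.

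The RNA came from 36 poly(A) libraries in 12 groups of 3. Wild-type (WT) cells and cells that had been transfected with a light-responsive targeting construct, LiTEC, were either kept dark or given 30 min of blue light, and RNA was taken 0, 1 or 4 h later. All cultures, WT and dark ones included, had doxycycline at 2 µg/ml for 2 days in serum-free medium with LIF and inhibitors of MEK and GSK3. The LiTEC cells are 1 line and the labels do not say whether it is a clone, so an effect of the construct and a difference between lines cannot be told apart. Nothing in the labels ties each replicate to its own culture, so the p-values speak of the spread among the libraries at hand, which may be technical. Counts of RNA do not tell the parental copies apart, and a higher level can come from one copy or from both.

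Library totals ran from 11132970 to 21842256 counts. Replicate 1 of every group was in batch 1, and replicates 2 and 3 were in batch 2. The ribosomal RNA locus Gm26917 took 8.12% to 26.1% of counts, with the highest share in dark WT cells at 4 h, replicate 3. All 8 embryonic stem cell markers were detected, and their summed level had a median of 3800 CPM (counts scaled to a common library size, with TMM factors) in WT and 3770 in LiTEC cells. The sum hides differences in both directions: in the dark all 8 were called, Tfcp2l1 and Zfp42 higher in LiTEC cells and the other 6 lower, with a median log2 difference of -0.21. Markers of other cell types were lower: the 6 trophectoderm markers summed to 17.7 to 28.5 CPM in WT and 15.1 to 25.1 in LiTEC libraries. The 6 primitive endoderm markers gave 3.72 to 6.35 CPM in WT and 5.39 to 9.29 in LiTEC libraries. The 3 mesoderm markers gave 3.13 to 7.51 CPM in WT and 0.523 to 1.78 in LiTEC libraries, and the 6 fibroblast or feeder markers 5.06 to 10.6 and 2.82 to 7.49. The 4 neuroectoderm markers summed to 90.7 to 126 CPM in WT and 78.3 to 117 in LiTEC libraries. The lines also differed in 5 sex-linked genes, which summed to 171 to 188 CPM in WT and 252 to 292 in LiTEC libraries. All 5 were called in the dark and in the light, beside 47.6% and 43.4% of all tested genes. Ddx3y, Eif2s3y, Kdm5d and Uty were higher and Xist lower in LiTEC cells. What this means for the imprinted genes was not tested. Elf5 of trophectoderm, Afp of endoderm, Lum of fibroblasts and Mesp1 of mesoderm averaged under 0.1 CPM in both lines, and single libraries reached 0.305 CPM (Afp).

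The start of transcription of 4 members on which the results turn is shown here as the 250 bases before the RefSeq start (GRCm38.p6), 5′ to 3′ on the gene's strand. Capitals mark the hexamer TGCCGC or its reverse complement GCGGCA, the letters that the imprint-protecting zinc finger protein ZFP57 reads when methylated. Plagl1 and Meg3 are shown because the hexamer is present, and Nnat and Ascl2 because they are strongly changed members without it. The windows are chr10:13090582-13090831 on the plus strand (Plagl1), chr12:109540746-109540995 on the plus strand (Meg3), chr2:157559828-157560077 on the plus strand (Nnat) and chr7:142969265-142969514 on the minus strand (Ascl2).
Plagl1: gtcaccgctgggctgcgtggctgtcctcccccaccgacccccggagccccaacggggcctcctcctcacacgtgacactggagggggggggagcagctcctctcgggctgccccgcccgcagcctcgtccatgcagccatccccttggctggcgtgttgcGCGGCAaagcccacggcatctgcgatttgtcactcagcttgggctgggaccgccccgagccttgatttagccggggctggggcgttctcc
Meg3: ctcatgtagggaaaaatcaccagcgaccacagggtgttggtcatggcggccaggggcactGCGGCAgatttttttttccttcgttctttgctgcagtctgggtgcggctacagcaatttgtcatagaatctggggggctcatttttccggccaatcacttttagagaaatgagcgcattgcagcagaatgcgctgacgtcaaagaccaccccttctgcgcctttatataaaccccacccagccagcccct
Nnat: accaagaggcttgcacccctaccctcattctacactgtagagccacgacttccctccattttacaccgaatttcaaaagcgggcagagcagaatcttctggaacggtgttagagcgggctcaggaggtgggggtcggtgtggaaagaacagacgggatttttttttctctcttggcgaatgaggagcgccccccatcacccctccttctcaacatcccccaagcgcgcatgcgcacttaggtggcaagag
Ascl2: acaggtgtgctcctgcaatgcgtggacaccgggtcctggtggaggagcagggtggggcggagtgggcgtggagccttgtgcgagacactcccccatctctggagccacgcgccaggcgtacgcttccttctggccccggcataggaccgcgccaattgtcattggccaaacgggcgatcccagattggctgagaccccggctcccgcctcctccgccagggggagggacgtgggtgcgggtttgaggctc
The Plagl1 and Ascl2 windows each held 19 CG dinucleotides, the Nnat window 12 and this Meg3 window 10. A window was found for 40 of the 51 members, 60 windows in all with a median of 10 CG, against 6 over the 32851 windows of all genes. The hexamer, searched on both strands, was in 7 of the 60 windows (11.7%) and in 2850 of all windows (8.68%). The 6 members with a match were Copg2, Meg3, Mest, Nap1l5, Plagl1 and Zim1. A match describes letters only, and promoters are often not the control region of a cluster.

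The levels of the members covered a wide range. Per kilobase of merged exons, the highest was Peg10, a gene derived from a retrotransposon that the placenta needs, at 42.9 ± 8.42 counts per kilobase on the CPM scale in WT and 117 ± 35.2 in LiTEC cells (SD, n = 18 each). Mest, of the hydrolase family, stood at 68.9 ± 10.7 in WT and 56.3 ± 9.69 in LiTEC cells on the same scale (SD, n = 18 each), so that it was above Peg10 in WT cells and below it in LiTEC cells. Cd81, a tetraspanin, Impact, a regulator of translation, and the splicing factor Snrpn followed, at 48.7, 40.3 and 38.2 per kilobase over all libraries; the spreads of Impact and Snrpn overlapped. The median of all tested genes was 3.19, and 23 of the 46 tested members were above it. The other 5 members were too low to test, with the sum of counts over all 36 libraries at 93 for Asb4, 45 for Rtl1, 40 for Kcnq1, 21 for Rasgrf1 and 9 for Kcnk9.

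**Figure D1:**
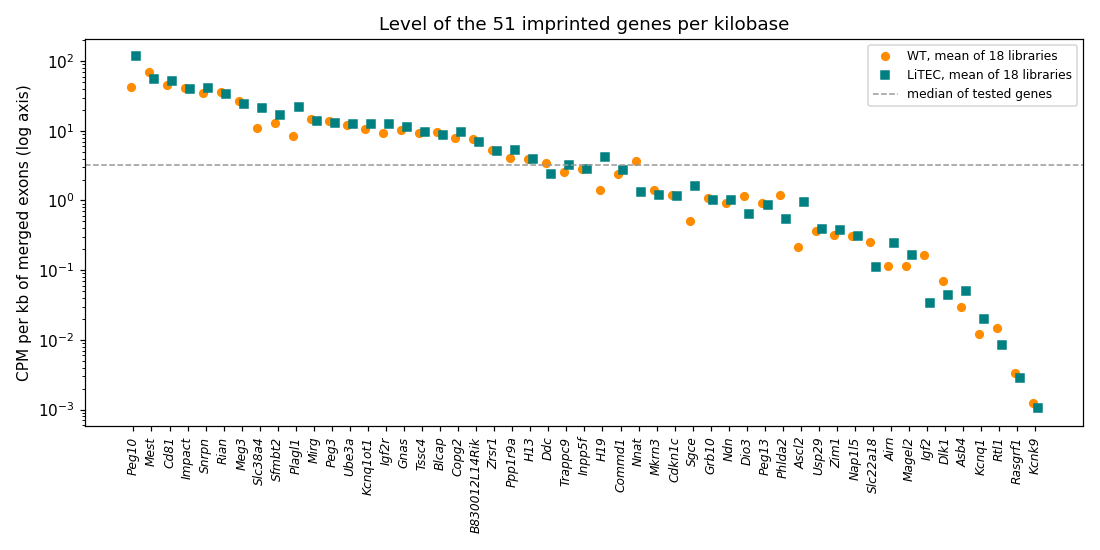
Mean level of each of the 51 imprinted genes in CPM per kilobase of merged exons (log axis), in WT (circles) and LiTEC cells (squares), 18 libraries each, ordered by the mean over all libraries. The dashed line is the median of the tested genes, 3.19, which 23 members exceed.

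The main question was how imprinted genes differ between the LiTEC line and WT cells. Of the 46 members tested, 17 were higher and 11 lower in dark LiTEC cells at an adjusted p below 0.05 (edgeR's quasi-likelihood test over all 18193 tested genes), beside 23.9% and 23.7% of all tested genes. In lit cells 19 were higher and 13 lower, beside 22.2% and 21.2%. In either direction this is 28 members in the dark, where 47.6% of all tested genes were called, and 32 in the light, where 43.4% were. The members called in the same direction in both comparisons numbered 24, beside 35.9% of all tested genes. Each of the 24 had the same sign at every replicate number, which their selection from these same libraries makes likely. Some members that were not called, such as Dlk1 and Ndn, also kept 1 sign. A difference of at least 1 on the log2 scale in both was reached by 8 members, beside 4.23% of all tested genes: Plagl1, Peg10, Sgce, H19 and Ascl2 rose and Igf2, Nnat and Phlda2 fell. The median size of the log2 difference was 0.25 for the members in the dark and 0.21 for all tested genes, and 0.25 and 0.19 in the light.

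Libraries with the same replicate number deviated alike from their group means, within a line and across the lines. The 9 libraries of a line in 1 light condition therefore hold less independent information than their number. With the 3 libraries of a replicate number summed, 3 sums against 3, edgeR called 20 members in the dark (29.5% of all tested genes) and 24 in the light (28.1%). Of the 24 members called in the same direction in both, 18 were called on the sums in both; the call was lost for Mest and Commd1 in both conditions, for Gnas and Cd81 in the dark, and for Airn and Slc22a18 in the light. Leaving out any 1 library kept both calls for 21 of the 24.

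**Figure D2:**
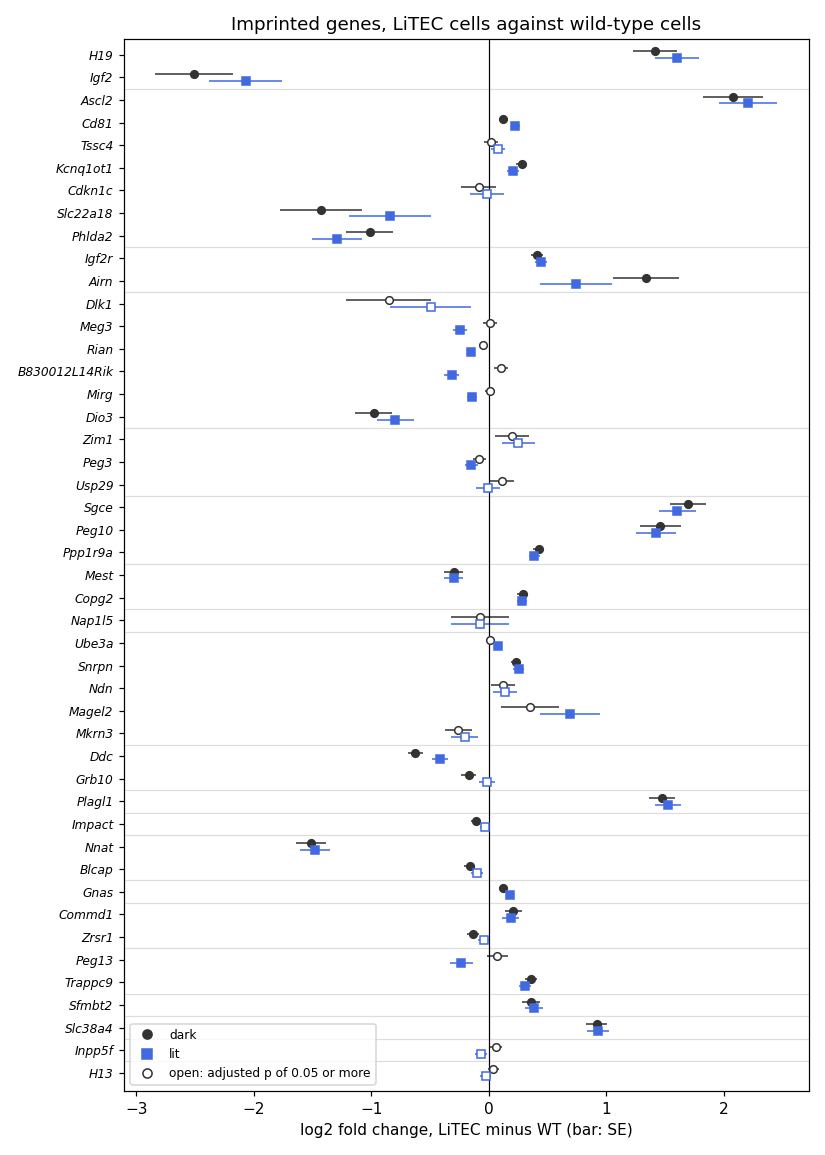
Log2 fold change, LiTEC minus WT, of the 46 tested imprinted genes in dark (circles) and lit (squares) libraries, 9 against 9 each, grouped by cluster; bars are SE and open symbols have an adjusted p of 0.05 or more. Igf2 lies farthest to the left at -2.51 in the dark and Ascl2 farthest to the right at 2.21 in the light.

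Among growth regulators, the growth factor gene Igf2 fell and its neighbour H19, a noncoding RNA made from the maternal copy, rose. Both lie on chromosome 7 (GRCm38), Igf2 at 142650766 to 142666816 and H19 at 142575529 to 142578143, and in many tissues they use shared enhancers on opposite parental copies. Igf2 was low throughout, with 0.556, 0.899 and 1.40 CPM as the lowest, median and highest dark WT library and 0, 0.152 and 0.330 CPM in dark LiTEC cells. In lit cells the same values were 0.475, 0.684 and 1.44 CPM in WT and 0.105, 0.181 and 0.451 CPM in LiTEC cells. No LiTEC library reached the lowest WT library of the same light condition, and the whole set of 9 dark LiTEC libraries held 23 Igf2 counts against 149 in WT. The log2 difference was -2.51 ± 0.33 in the dark (SE, edgeR adjusted p 1.42e-07) and -2.07 ± 0.31 in the light. In bulk RNA, fewer cells making a transcript and less of it per cell cannot be told apart.

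H19 ran from 2.58 through a median of 3.62 to 5.83 CPM in dark WT and from 3.87 through 10.4 to 15.9 CPM in dark LiTEC cells. In lit cells it was 2.34, 3.09 and 5.50 CPM in WT and 5.39, 10.8 and 18.7 CPM in LiTEC cells. The groups of 9 overlapped slightly, where LiTEC replicate 3 met WT replicate 1. At replicate 3 the 6 LiTEC libraries spanned 3.87 to 6.11 CPM and the 6 WT libraries 2.34 to 3.62 CPM. At replicate 2 LiTEC libraries spanned 8.79 to 12.8 CPM against 2.75 to 3.86 CPM in WT, and at replicate 1 they spanned 12.4 to 18.7 CPM against 3.04 to 5.83 CPM. At each replicate number the lines did not overlap. The log2 difference was 1.42 ± 0.18 in the dark and 1.60 ± 0.19 in the light (SE; edgeR adjusted p 1.02e-07 and 1.23e-08). Within batches the dark difference was 1.67 in batch 1 and 1.26 in batch 2.

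Igf2r encodes the receptor that removes IGF2 from the cell surface, and Airn is the noncoding RNA made across it from the paternal copy. Igf2r was 76.4, 86.0 and 101 CPM (lowest, median, highest) in dark WT and 103, 111 and 135 CPM in dark LiTEC cells, without overlap. It rose by 0.41 ± 0.05 on the log2 scale in the dark and 0.44 ± 0.05 in the light (SE; edgeR adjusted p 4.98e-08 and 1.10e-08). Airn rose as well, by 1.34 ± 0.28 in the dark and 0.74 ± 0.31 in the light (SE; edgeR adjusted p 1.83e-04 and 0.0485), from a median of 0.405 to 1.05 CPM in the dark. The lit call of Airn was lost without 13 of the 18 libraries in turn. Grb10, an adaptor that restrains insulin and IGF signalling, was 0.17 ± 0.07 (SE) lower in the dark only at an adjusted p of 0.0324, a call lost without 8 of 18 libraries, and differed by less than its error in the light.

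In the Kcnq1 domain, also on chromosome 7, the members did not move together. Ascl2, a transcription factor of the trophoblast, was 0.165, 0.285 and 0.724 CPM in dark WT and 0.604, 1.22 and 2.32 CPM in dark LiTEC cells, and 0.116, 0.370 and 0.656 CPM against 1.17, 1.47 and 2.59 CPM in lit cells. The lit groups did not overlap, while the dark groups shared the range from 0.604 to 0.724 CPM. Ascl2 rose by 2.08 ± 0.26 in the dark and 2.21 ± 0.25 in the light on the log2 scale (SE; edgeR adjusted p 3.68e-08 and 6.60e-09). Phlda2, which restrains growth of the placenta, fell by 1.01 ± 0.20 in the dark and by 1.29 ± 0.21 in the light, from medians of 1.48 and 1.32 CPM in WT to 0.664 and 0.564 CPM in LiTEC cells. Slc22a18, a transporter, fell by 1.43 ± 0.35 in the dark and by 0.84 ± 0.35 in the light, the latter at an adjusted p of 0.0484 that was lost without 13 of 18 libraries. Kcnq1ot1, the paternal noncoding RNA that silences the domain, rose by 0.28 ± 0.05 and 0.21 ± 0.05 (dark and lit), and Cd81 by 0.13 ± 0.04 and 0.23 ± 0.04. For Cd81 the dark rise was 0.24 ± 0.04 in batch 1 and 0.07 ± 0.03 in batch 2, and the lit rise 0.34 ± 0.04 and 0.17 ± 0.03. The cell cycle inhibitor Cdkn1c (-0.09 ± 0.15 in the dark) and Tssc4 (0.02 ± 0.06) did not pass the test. Ascl2 and Phlda2 are placental genes, and 2 of 5 tested trophectoderm markers were called in the dark, Cdx2 and Eomes, both lower in LiTEC cells (background as above); their part in these results was not tested.

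Of the 12 tested genes from H19 to Phlda2, 6 were higher and 3 lower in both light conditions, beside 18.3% and 17.6% of all tested genes. The antisense RNA Tspan32os and the tetraspanin gene Tspan32 directly follow Ascl2 in gene order among the tested genes. Tspan32os rose by 1.70 ± 0.18 and Tspan32 by 2.29 ± 0.23 on the log2 scale in the dark (SE; edgeR adjusted p 1.99e-09 and 2.90e-10). Tspan32 averaged 0.361 CPM in WT and 1.67 CPM in LiTEC cells, and Tspan32os 1.11 and 3.49 CPM. The strand setting of the counting is not given in the sources used here, so reads of these overlapping genes cannot be assigned with certainty.

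The Peg10 and Sgce genes on chromosome 6 start within a short distance of each other on opposite strands (Sgce 4674350 to 4747207, Peg10 4747306 to 4760517, GRCm38) and are both made from the paternal copy. Peg10 was 205, 282 and 385 CPM in dark WT and 458, 858 and 1126 CPM in dark LiTEC cells, and 210, 277 and 375 CPM against 425, 847 and 1073 CPM in lit cells. Sgce, which encodes epsilon-sarcoglycan, was 3.77, 5.12 and 8.05 CPM in dark WT and 12.5, 16.7 and 25.7 CPM in dark LiTEC cells. Neither gene overlapped between lines in the dark or in the light. Peg10 rose by 1.46 ± 0.17 in the dark and 1.42 ± 0.17 in the light, and Sgce by 1.70 ± 0.15 and 1.61 ± 0.16 (log2, SE; edgeR adjusted p from 4.37e-11 to 2.86e-08).

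Peg10 also differed between replicates 2 and 3, which share a batch. In LiTEC cells it was 895 to 1126 CPM over the 6 libraries of replicate 2 and 425 to 553 CPM over those of replicate 3, and in WT cells 280 to 385 and 205 to 265 CPM. The LiTEC level was higher at each replicate number without overlap. Further along, Ppp1r9a, which encodes the actin-binding protein neurabin, rose by 0.43 ± 0.05 and 0.39 ± 0.05, dark and lit. Of the 9 tested genes from Sgce to Pon2, 8 rose in the dark and 5 in the light, beside 23.9% and 22.2% of all tested genes, and none was called lower. Of these 9, Gm26814, Gm26736 and Gm26556 lie within the span of Ppp1r9a, so they may not be separate transcripts. None of them passed the test in the light. Pon3, a paraoxonase gene, rose by 0.89 ± 0.18 in the dark and 0.80 ± 0.18 in the light.

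**Figure D3:**
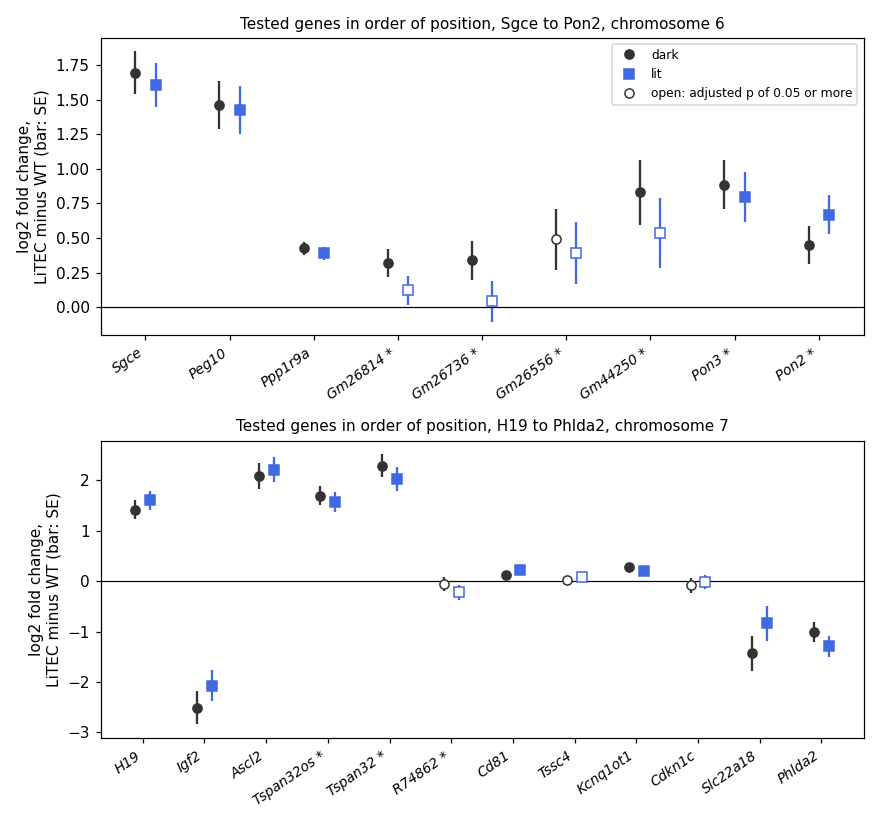
Log2 fold change, LiTEC minus WT, of tested genes in their order along chromosome 6 (Sgce to Pon2, upper panel) and chromosome 7 (H19 to Phlda2, lower panel), in dark (circles) and lit (squares) libraries; bars are SE, open symbols have an adjusted p of 0.05 or more, and an asterisk marks genes outside the set of 51. In the upper panel all points lie above 0, and in the lower panel Ascl2, Tspan32os and Tspan32 lie between 1.57 and 2.29 while Igf2 lies below -2.

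Of the genes in clusters of their own, Plagl1 had the smallest p of all members. It encodes a zinc finger protein that can arrest the cell cycle, lies on chromosome 10 at 13060504 to 13131694 (GRCm38) and is made from the paternal copy. The batches differed strongly, so its values are given within each. In batch 1 the 6 WT libraries were 16.7, 20.7 and 24.1 CPM (lowest, median, highest) and the 6 LiTEC libraries 77.4, 92.7 and 99.6 CPM. In batch 2 the 12 WT libraries were 72.4, 84.9 and 115 CPM and the 12 LiTEC libraries 175, 207 and 234 CPM. The lines did not overlap within a batch, but LiTEC cells of batch 1 lay within the range of WT cells of batch 2. The difference over both batches was 1.48 ± 0.11 in the dark and 1.53 ± 0.11 in the light (log2, SE; edgeR adjusted p 6.67e-13 and 3.43e-13). Its size depended on the batch: in the dark it was 2.11 ± 0.08 in batch 1 and 1.22 ± 0.06 in batch 2, and the difference between batches, -0.89 ± 0.09, passed the test (adjusted p 1.14e-07).

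Slc38a4, an amino acid transporter, was 43.1, 49.0 and 50.4 CPM in dark WT and 73.4, 82.3 and 117 CPM in dark LiTEC cells, and 35.1, 47.7 and 54.1 CPM against 72.2, 77.0 and 119 CPM in lit cells. The lines did not overlap, and the gene rose by 0.92 ± 0.09 and 0.93 ± 0.09 (log2, SE; edgeR adjusted p 5.69e-10 and 5.08e-10). Nnat, a brain proteolipid whose gene lies inside Blcap, went the other way. It was 5.62, 6.73 and 8.50 CPM in dark WT and 1.38, 2.13 and 3.37 CPM in dark LiTEC cells, and 5.60, 6.70 and 8.62 CPM against 1.87, 2.27 and 3.45 CPM in lit cells, again without overlap. Nnat fell by 1.51 ± 0.13 in the dark and by 1.48 ± 0.13 in the light (log2, SE; edgeR adjusted p 1.37e-11 and 1.72e-11). Blcap fell by 0.16 ± 0.05 in the dark and did not pass the test in the light. Of the 4 tested neuroectoderm markers, 1 was higher (Nes) and 2 were lower (Pax6 and Tubb3) in dark LiTEC cells. Of all tested genes, 47.6% were called in that comparison. The part of these markers in the Nnat result was not tested.

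**Figure D4:**
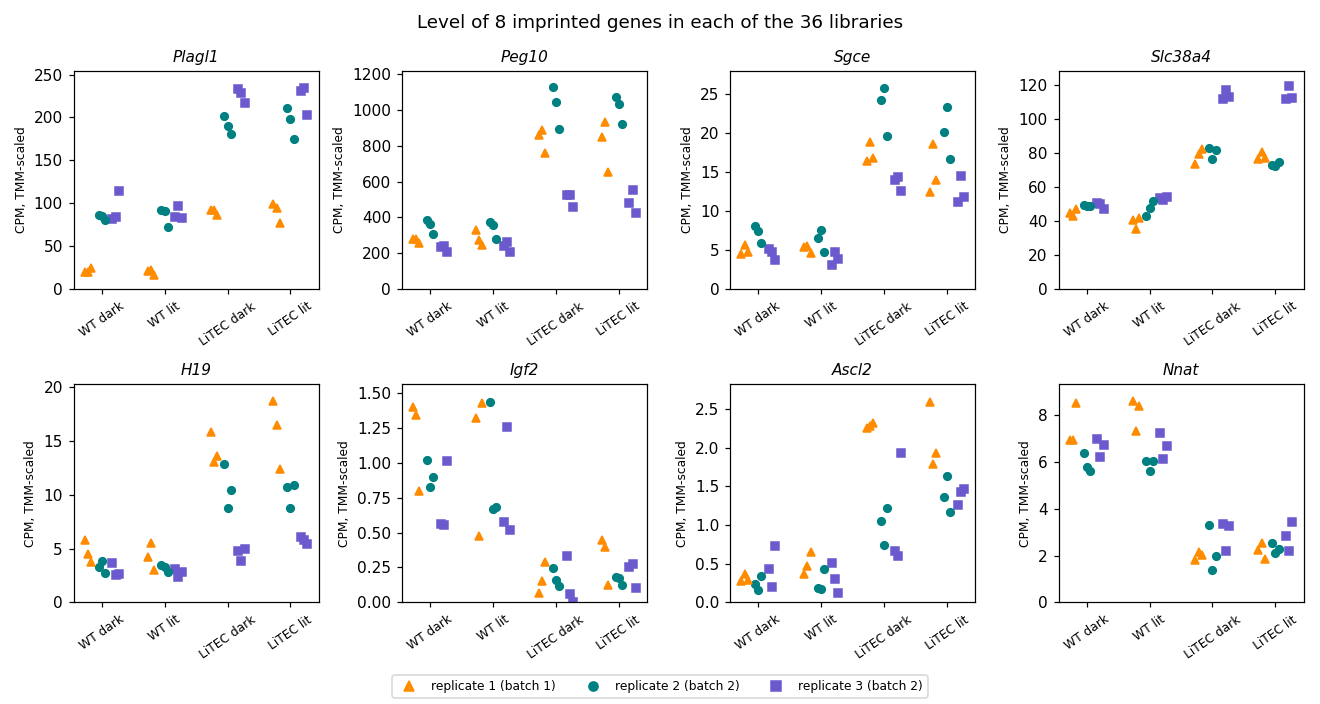
CPM on TMM-scaled library sizes of 8 imprinted genes in each of the 36 libraries, by line and light; symbols and colours give the replicate number, and every axis starts at 0. Plagl1 shows the split between batch 1 (triangles, 16.7 to 24.1 CPM in WT) and batch 2 (72.4 to 115 CPM), and Peg10 and H19 show LiTEC replicate 3 below LiTEC replicate 2.

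Ddc, the decarboxylase that makes dopamine and serotonin, fell by 0.63 ± 0.07 in the dark, from a median of 16.8 to 10.8 CPM, and by 0.41 ± 0.07 in the light, from 13.9 to 11.0 CPM, without overlap in either. Mest fell by 0.30 ± 0.08 in both conditions, a call not made on replicate sums (adjusted p 0.0749 and 0.0658), while Copg2, a subunit of the vesicle coat on the other strand whose exons overlap those of Mest, rose by 0.29 ± 0.05 and 0.28 ± 0.05. Copg2 was 36.3 to 43.2 CPM in dark WT and 45.5 to 52.9 CPM in dark LiTEC cells, without overlap. A further 4 members rose by less than 0.4 in the dark and were called in both conditions. They were the Polycomb-related Sfmbt2 (0.36 ± 0.08 and 0.39 ± 0.08), the trafficking gene Trappc9 (0.36 ± 0.05 and 0.31 ± 0.05), Commd1 (0.21 ± 0.07 and 0.19 ± 0.07) and the G protein subunit gene Gnas (0.12 ± 0.03 and 0.18 ± 0.03; dark, lit, SE). The lit call of Commd1 was lost without 9 of 18 libraries. Impact fell by 0.11 ± 0.04 and Zrsr1 by 0.13 ± 0.05 in the dark, and both calls were lost without some libraries (7 and 9 of 18).

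With all 9 libraries of each line compared in the dark, 11 members did not overlap (7.87% of all tested genes), and in the light 10 did not (7.00%). The same direction without overlap in both was found for 8 members (4.38%). They were Igf2r, Peg10, Sgce, Copg2 and Slc38a4, higher in LiTEC cells, and Igf2, Ddc and Nnat, lower. By the parental copy listed for each gene, 8 of 20 tested maternal members were higher and 2 lower in both conditions. Of 24 paternal members 8 were higher and 5 lower. The listed copy is an assigned label, and which copy these cells use was not measured. Of all tested genes, 18.3% were called higher and 17.6% lower in both conditions.

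In the cluster between Snrpn and Ube3a, which is affected in Prader-Willi and Angelman syndromes, Snrpn rose by 0.24 ± 0.04 in the dark and 0.25 ± 0.04 in the light. The host transcript Snhg14, whose exons overlap those of Ube3a on the other strand, rose by 0.29 ± 0.08 and 0.23 ± 0.08. Gm38393 rose by 0.21 ± 0.05 and 0.14 ± 0.05. Its exons overlap those of Snrpn on the same strand, so its rise may not be separate from that of Snrpn. The Snrpn rise lay mostly in batch 2. It was 0.08 ± 0.05 in batch 1 and 0.31 ± 0.04 in batch 2 in the dark, and 0.10 ± 0.05 and 0.33 ± 0.04 in the light. Ube3a, a ubiquitin ligase gene, was called in the light only, at 0.08 ± 0.03, and lost that call without 4 of 18 libraries. Magel2 was called in the light only, at 0.69 ± 0.25, and lost the call without 7 of 18. Ndn (0.12 ± 0.10) and Mkrn3 (-0.26 ± 0.12) did not pass the test in the dark. In the Peg3 cluster the zinc finger gene Peg3 was 0.15 ± 0.05 lower in the light (adjusted p 0.0225, lost without 5 of 18 libraries), and Usp29 and Zim1 passed in neither condition. Within batches the Peg3 difference was -0.36 ± 0.05 in batch 1 and -0.04 ± 0.04 in batch 2 in the light, and -0.29 ± 0.05 and 0.03 ± 0.04 in the dark (edgeR adjusted p 2.74e-06, 0.480, 6.21e-05 and 0.629). Nap1l5, Inpp5f and H13 passed in neither condition as well, with dark differences of -0.07 ± 0.25, 0.06 ± 0.05 and 0.04 ± 0.05. Peg13 was 0.23 ± 0.10 lower in the light, a call lost without 11 of 18 libraries. One antisense RNA within Ddc, 1700042O10Rik, fell by 1.18 ± 0.26 in the dark and was at -0.61 ± 0.27 in the light (adjusted p 0.0628).

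The Dlk1-Dio3 cluster on chromosome 12 makes noncoding RNAs from the maternal copy (Meg3, Rian, Mirg) and protein-coding genes from the paternal copy (Dlk1, Rtl1, Dio3). Dio3, whose enzyme inactivates thyroid hormone, fell from 2.17, 2.53 and 3.10 CPM in dark WT to 0.890, 1.24 and 1.74 CPM in dark LiTEC cells, by 0.98 ± 0.16 on the log2 scale (SE, edgeR adjusted p 3.54e-06), and by 0.79 ± 0.16 in the light. Dlk1, a transmembrane ligand related to those of Notch, had 198 counts over all libraries and was at -0.85 ± 0.36 in the dark (adjusted p 0.0526). None of the noncoding RNAs passed the test in the dark, with differences of 0.01 ± 0.06 for Meg3, -0.05 ± 0.03 for Rian, 0.01 ± 0.04 for Mirg and 0.10 ± 0.06 for B830012L14Rik, a noncoding RNA downstream of Rian. Meg3 had opposite signs in the batches in the dark, -0.18 ± 0.07 in batch 1 (edgeR adjusted p 0.0442) and 0.11 ± 0.06 in batch 2 (adjusted p 0.110). In the light all 4 were called lower in LiTEC cells, Meg3 at -0.25 ± 0.06, Rian at -0.15 ± 0.03, Mirg at -0.14 ± 0.04 and B830012L14Rik at -0.32 ± 0.06. Across the whole cluster, 2 of 62 tested genes were higher and 2 lower in the dark, and none higher and 14 lower in the light, where 22.2% and 21.2% of all tested genes were called higher and lower (23.9% and 23.7% in the dark). Many of the 62 are short entries, such as microRNA genes, along the stretch from Meg3 to Mirg, so they may not be separate transcripts. Whether the dark and lit differences themselves differed was tested at each time after light, as follows.

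Blue light changed few members. In WT cells directly after light, 2 of 46 rose, beside 1.66% of all tested genes called higher (2.86% in either direction). B830012L14Rik was 36.3, 24.2 and 23.5 CPM in the dark replicates 1, 2 and 3 and 49.4, 41.7 and 36.5 CPM in the lit ones. The lit libraries were all above the dark ones, and the rise of 0.62 ± 0.10 on the log2 scale passed the test (SE, edgeR adjusted p 3.23e-04) and was kept without any 1 of the 6 libraries. Meg3 was 527, 376 and 370 CPM in the dark and 631, 580 and 458 CPM after light. It was higher at each replicate number but the groups overlapped, and its rise of 0.40 ± 0.10 (adjusted p 0.0214) was lost without 4 of the 6 libraries in turn: lit replicates 1 and 2 and dark replicates 2 and 3. Mirg (0.22 ± 0.07, adjusted p 0.115) and Rian (0.10 ± 0.05) did not pass.

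In LiTEC cells at the same time B830012L14Rik was 37.2, 30.6 and 26.8 CPM in the dark and 32.5, 23.6 and 25.8 CPM after light, lower at each replicate number, a difference of -0.21 ± 0.11 that did not pass the test. The light effect in LiTEC cells minus that in WT cells was -0.82 ± 0.15 (edgeR adjusted p 0.0175), and 0.0220% of all tested genes were called in that comparison. This call was lost without 7 of the 12 libraries in turn, which are the lit replicates 1 and 2 of both lines, dark LiTEC replicate 2 and dark WT replicates 2 and 3. For Meg3 (-0.52 ± 0.14, adjusted p 0.663), Mirg (-0.32 ± 0.10, adjusted p 0.680) and Rian (-0.13 ± 0.08, adjusted p 0.830) the difference of light effects did not pass.

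**Figure D5:**
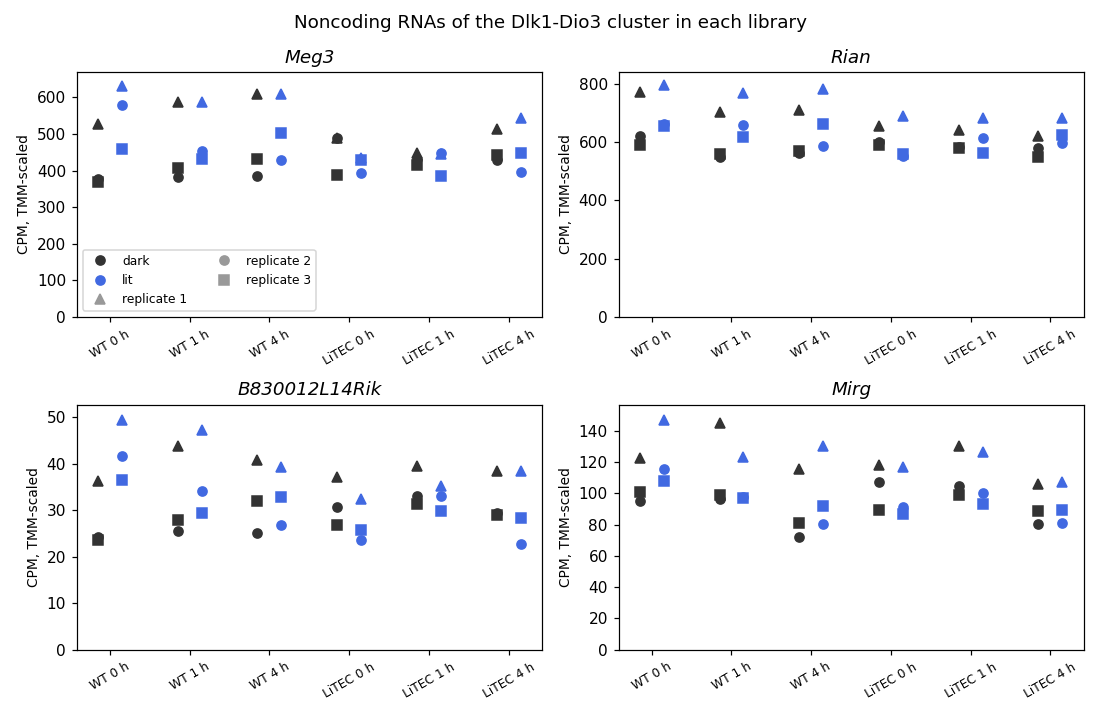
CPM on TMM-scaled library sizes of 4 noncoding RNAs of the Dlk1-Dio3 cluster in each library, by line and time after light, dark (black) beside lit (blue); symbols give the replicate number and every axis starts at 0. At WT 0 h the lit B830012L14Rik points (36.5 to 49.4 CPM) lie above the dark ones (23.5 to 36.3 CPM), and at LiTEC 0 h they do not.

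With the batch term, edgeR called no member in the other light comparisons. In WT cells 2 members had an unadjusted p under 0.05 at 1 h and 6 at 4 h, beside 7.07% and 8.16% of all tested genes at that unadjusted threshold and 0.286% and 0.00% called. In LiTEC cells the numbers were 4 at 0 h, 4 at 1 h and 3 at 4 h, beside 10.1%, 6.26% and 6.35% of all tested genes at that unadjusted threshold and 0.934%, 0.115% and 0.0110% called. DESeq2 called none in any of these 5 comparisons and 3 in WT cells at 0 h. The members with the smallest p were Rian in WT cells at 1 h (0.18 ± 0.05, adjusted p 0.226), Ddc in WT cells at 4 h (-0.38 ± 0.11, adjusted p 0.345), and in LiTEC cells Blcap at 0 h (0.25 ± 0.09), Zrsr1 at 1 h (0.30 ± 0.09) and Peg13 at 4 h (-0.55 ± 0.16). The difference of light effects at 1 h and 4 h gave no edgeR call, with 0 and 2 members at an unadjusted p under 0.05, beside 2.08% and 3.61% of all tested genes, and none by DESeq2. Of all tested genes 0.00% were called in both.

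In the dark, the share of members that changed over time was near that of all tested genes. In dark WT cells 5 members changed over 0, 1 and 4 h (10.9% of those tested, beside 10.2% of all tested genes). In dark LiTEC cells 2 did (4.35% beside 5.63%). Blcap was 25.6, 27.5 and 24.7 CPM at 0 h and 30.1, 34.8 and 39.7 CPM at 4 h in dark WT cells (replicates 1, 2 and 3), a rise of 0.42 on the log2 scale (edgeR F test over the times, adjusted p 8.66e-04) without overlap between these times. Ppp1r9a went from 71.3, 64.5 and 61.5 CPM to 56.7, 46.9 and 45.1 CPM, -0.41 in WT cells, and from 93.6, 92.0 and 79.2 CPM to 68.6, 72.9 and 64.1 CPM, -0.36 in LiTEC cells, without overlap in either line. Mirg was called in both lines as well, at -0.26 and -0.20 from 0 to 4 h. Grb10 (-0.45) and Gnas (0.23) were called in WT cells only, and no test compared the lines. The calls of Grb10 and Gnas were lost without 4 and 5 of the 9 libraries in turn. The LiTEC calls of Mirg and Ppp1r9a were lost without 6 and 2 of 9 libraries, and the WT call of Mirg without 1. The calls over time thus rested on single libraries in part. Without 1 library at a time, WT kept 2 to 5 calls, the fewest without dark replicate 2 at 4 h. LiTEC kept 0 to 3, the fewest without dark replicate 1 or 3 at 4 h.

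The batch comparison rests on all 36 libraries and each light comparison on fewer, so their counts of called members cannot be compared. Between batch 2 and batch 1, 20 members were called, 43.5% of those tested, which is near the 40.5% of all tested genes. Of these, 7 were higher and 13 lower in batch 2, beside 20.4% and 20.1% of all tested genes. Plagl1 was 1.58 ± 0.09 higher in batch 2, and Gnas 0.65 ± 0.03, H19 0.78 ± 0.13, Ascl2 0.74 ± 0.17 and Cdkn1c 0.67 ± 0.10 lower. All 4 noncoding RNAs of the Dlk1-Dio3 cluster named above were lower, from -0.25 ± 0.02 for Rian to -0.45 ± 0.04 for B830012L14Rik. The difference between the lines depended on the batch for 5 members (2.72% of all tested genes): Plagl1, Peg3, Snrpn, Meg3 and Cd81.

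Genes that place, keep or remove imprints were all detected. Of 23 such genes, 6 were higher and 10 lower in dark LiTEC cells and 4 and 10 in lit cells, or 69.6% and 60.9% called beside 47.6% and 43.4% of all tested genes. The list had a median size of the log2 difference of 0.17 and 0.12 beside 0.21 and 0.19 for all tested genes. Dnmt3a, a methyltransferase that adds new DNA methylation, was 58.5, 71.6 and 131 CPM in dark WT and 124, 151 and 215 CPM in dark LiTEC cells, overlapping in their extremes, and rose by 0.95 ± 0.06 (log2, SE; edgeR adjusted p 5.80e-15). Tet2, which oxidises methylated cytosine, fell by 0.52 ± 0.05, Uhrf1, which recruits the maintenance methyltransferase, by 0.29 ± 0.04, and Ezh2, the Polycomb methyltransferase, by 0.27 ± 0.03. In lit cells these 4 differed in the same direction and were called as well.

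A further list of 35 imprinted genes outside the set of 51 had 24 tested, of which 10 were higher and 6 lower in the dark and 9 and 8 in the light, beside 23.9% and 23.7% of all tested genes in the dark and 22.2% and 21.2% in the light. Zfp264, a zinc finger gene of the Peg3 domain, was 1.54, 2.27 and 2.92 CPM in dark WT and 8.31, 9.12 and 13.5 CPM in dark LiTEC cells, without overlap, and rose by 2.11 ± 0.11 (log2, SE; edgeR adjusted p 6.02e-17). The members Peg3, Usp29 and Zim1 of the same domain did not pass in the dark, at -0.08 ± 0.05, 0.12 ± 0.10 and 0.20 ± 0.14. Other listed zinc finger genes of the domain, named after their values were seen, did: Zim3, with 5 counts in dark WT and 92 in dark LiTEC cells, was higher (adjusted p 4.59e-09), and Zim2 by 0.60 ± 0.25 (adjusted p 0.0493), but Zim2 was at -0.41 ± 0.25 in the light and did not pass there. Gab1, a signalling adaptor gene, rose by 0.60 ± 0.03, from 345, 389 and 431 CPM to 568, 590 and 619 CPM, and Zdbf2 fell by 0.31 ± 0.03.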

How the data were processed

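RNA was measured in 36 libraries of WT and LiTEC mouse embryonic stem cells. The authors deposited raw counts per gene with a map from gene IDs to symbols, whose symbol column is text and not a score. The submitters' processing notes name featureCounts, FastQC and the build mm10 (GRCm38). Which aligner, strand setting and versions were used is not given in the sources used here. TRIzol extraction and a stranded mRNA library kit are stated per the labels' protocols. Of the 51 members, 23 have exons that overlap another counted gene, 20 of them on the opposite strand, so their counts are uncertain.

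All 36 libraries were fitted with edgeR 4.0.16 (R 4.3.3, limma 3.58.1): TMM scaling, filterByExpr with a minimum count of 10, a mean per group and a batch term, 23 residual degrees of freedom, quasi-likelihood tests, Benjamini-Hochberg over 18193 genes, called below 0.05. An SE is the log2 fold change divided by the square root of F. Replicate sums were chosen after seeing the data. The steps were tested on simulated data. DESeq2 1.42.0 and other settings were alternatives. Exon lengths and positions came from GENCODE M21, promoters from RefSeq (GRCm38.p6).

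The members and gene lists were chosen with earlier results of these data known. Named genes are every member called in a comparison, up to 4 called genes of each further list by smallest p in dark LiTEC minus WT, and up to 6 such genes lying between members of a cluster; not every marker gene selected is named. No column outside the 36 libraries was used.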

Additional observations from a re-analysis of the deposited data

Results flagged for a closer look

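The light effect directly after light differed between lines for B830012L14Rik, by a test of the difference itself: LiTEC minus WT was -0.82 ± 0.15 on the log2 scale (SE, edgeR adjusted p 0.0175), lower in LiTEC cells at each of the 3 replicate numbers and higher in WT cells at each. The call was lost without 7 of the 12 libraries in turn, and was not made without a batch term or in batch 2 alone. The light effect in LiTEC cells did not pass the test by itself.

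The difference between LiTEC and WT cells was not the same in both batches for 5 members, by the batch by line term. Batch 2 minus batch 1 of that difference was -0.89 ± 0.09 for Plagl1 (adjusted p 1.14e-07) and 0.32 ± 0.06 for Peg3 (adjusted p 9.29e-04). It was 0.23 ± 0.05 for Snrpn (adjusted p 0.00875), 0.29 ± 0.07 for Meg3 (adjusted p 0.0268) and -0.17 ± 0.05 for Cd81 (adjusted p 0.0322). The calls of Meg3 and Cd81 were lost without 10 and 7 of the 36 libraries in turn. Batch 1 holds 1 replicate per group, and what set the batches apart was not tested.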

How the results depend on the processing

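None of the calls named for members reversed direction under the alternatives run. The calls over time in the dark are left out of this statement, because their direction was not compared. RLE size factors kept, and so did leaving out 2 rRNA genes (Gm26917, Gm42418), the call of all 95 named member results, and DESeq2 kept 92. Without a batch term 49 of 70 were kept, in batch 2 alone 54 of 68, without an expression filter 84 of 95 and on replicate sums 44 of 60; the cause was not tested. Without a batch term the members called were 0 for light in WT cells at 0 h, 0 for the difference of light effects at 0 h, 2 for dark WT cells over time and 0 for dark LiTEC cells over time. In batch 2 alone they were 1 for light in WT cells at 0 h, 0 for the difference at 0 h and 0 for dark LiTEC cells over time. Without an expression filter 1 was called for light in WT cells at 4 h, 1 in LiTEC cells at 0 h and 2 for the difference at 0 h.

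A replicate block in place of batch moved only dark LiTEC cells over time, to 4, and kept 70 of 70 named results. A replicate block in each genotype, added after seeing the data, gave 4, 1 and 1 for light in WT cells at 0, 1 and 4 h, 9 for dark WT and 7 for dark LiTEC cells over time. Same-numbered libraries deviated together, with correlations from 0.098 (median 0.329), and each of the 36 matched best with its own number, as a hint from the data.

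Leaving out 1 library at a time gave 25 to 29 members for LiTEC minus WT in the dark and 27 to 31 in the light, 1 to 2 for light in WT cells at 0 h, 0 to 1 for the difference at 0 h, 2 to 5 and 0 to 3 for dark WT and LiTEC cells over time, 18 to 22 between batches, and 3 to 6 for the batch by line term. Depth limits the members tested with a mean under 1 CPM over all libraries: Phlda2, Ascl2, Nap1l5, Slc22a18, Airn, Magel2, Igf2 and Dlk1.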
